A study of Homo sapiens with 6 samples.

Results

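The genes described here encode enzymes that remove R-loops or act on the RNA within them: RNASEH1, RNASEH2A, RNASEH2B, RNASEH2C, AQR, XRN2, TOP1, TOP3B and ADAR. They were listed by name, with earlier results of these data known, and are 9 of the 20033 protein-coding genes of the RefSeq table of GRCh38.p14. For each gene, the bases under called R-loop peaks were counted in every sample from 2 kb before to 2 kb beyond each gene. The ends (within 2 kb of either end of the gene) and the body (the rest of the gene) were then taken apart. XRN2 and ADAR are neither RNases H, helicases nor topoisomerases, and they were kept because the list names them.

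An R-loop forms when nascent RNA pairs with its DNA template and leaves the other DNA strand unpaired. Cells limit these structures by cutting the RNA strand (RNases H), by unwinding the hybrid (helicases), by removing the negative supercoils that favour it (topoisomerases) and by ending transcription promptly. R-loops over the genes of these enzymes form on their own transcripts, and their coverage does not measure the amount or activity of the enzyme.

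DNA-RNA hybrid immunoprecipitation sequencing (DRIP-seq) was carried out on SH-SY5Y, a neuroblastoma cell line, with the hybrid-binding antibody S9.6 after restriction digestion. The cells had been infected with a lentivirus that carried either the short hairpin shT2 (3 samples) or the short hairpin shNC3 (3 samples), and both populations had been selected and kept in puromycin. The series concerns stable knockdown of TDP-43, an RNA-binding protein. The labels do not say which hairpin targets TDP-43, so from the names shT2 is read as the knockdown and shNC3 as the negative control, and every difference is given as shT2 relative to shNC3. Hybrid peaks do not measure the TDP-43 transcript, so the knockdown itself was not checked here. Each hairpin is represented by 1 selected population, and no label states that its samples were separate cultures. The p-values thus rest on sample-to-sample spread that could be wholly technical. In bulk material, R-loops in fewer cells and fewer R-loops per cell cannot be told apart.

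The lists held 49068 to 50971 peaks for shT2 and 42717 to 45390 for shNC3, and covered 72658302 to 78160053 bp and 62860508 to 70485375 bp. The depth recovered from the peak values was 3.08 to 3.46 fragments per base in shT2 and 1.65 to 1.79 in shNC3, so the shT2 libraries were 1.90 times as deep. Covered length was therefore scaled to the total of each list, and results are also given with peaks that would be called at equal depth. That setting drops peaks whose summit would miss the threshold at the lowest depth. The peaks it keeps retain the width called at full depth, so covered length itself is not brought to equal depth. Of 10 noradrenergic neuroblastoma markers, 9 carried a peak in some sample, with a summed covered length of 94.7 to 102 kb in shT2 and 86.9 to 95.2 kb in shNC3, and TH was at 0 in every sample. Of 8 mesenchymal markers, 7 carried a peak, with sums of 11.1 to 13.0 kb in shT2 and 40.7 to 43.7 kb in shNC3, and SNAI2 was at 0. Of 6 markers of other lineages, only KRT5 carried a peak, in 1 shNC3 sample. The part of this marker difference in the results below was not tested.

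Coverage per length differed widely between the genes. RNASEH2C lay almost wholly under peaks, over 93.8% to 98.7% of its window in the 6 samples. TOP3B lay under peaks for 51.9% to 69.1%, RNASEH2A over 29.0% to 67.2%, RNASEH1 over 37.2% to 41.4% and ADAR over 20.0% to 36.9%. The 4 long genes were sparsely covered: XRN2 over 2.15% to 6.76%, TOP1 over 2.11% to 4.77%, AQR over 0.867% to 3.27% and RNASEH2B over 0% to 3.15%. The wide range of RNASEH2A overlapped those of TOP3B, RNASEH1 and ADAR, while the range of RNASEH1 lay below that of TOP3B and above that of ADAR. The ranges of the 4 sparse genes overlapped one another.

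In the span, 3 of the 9 genes (AQR, XRN2 and ADAR) gained covered length with shT2, and 1 (RNASEH2A) lost it, by an adjusted p below 0.05 in the limma fit. Across all 11769 genes tested, 24.1% were called higher and 27.2% lower, 51.3% in all, so the share of called members is close to that of genes at large. The scaled values of the 2 hairpins did not overlap for 5 of the 9 members, against 65.0% of all genes tested. The median log2 difference over all genes was -0.08, and 0.06 without scaling to list length. Among called genes, 47.0% were higher in shT2, and 60.9% without scaling. The corresponding shares were 37.1% and 54.4% at the ends, and 53.8% and 65.2% in the body.

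**Figure D1:**
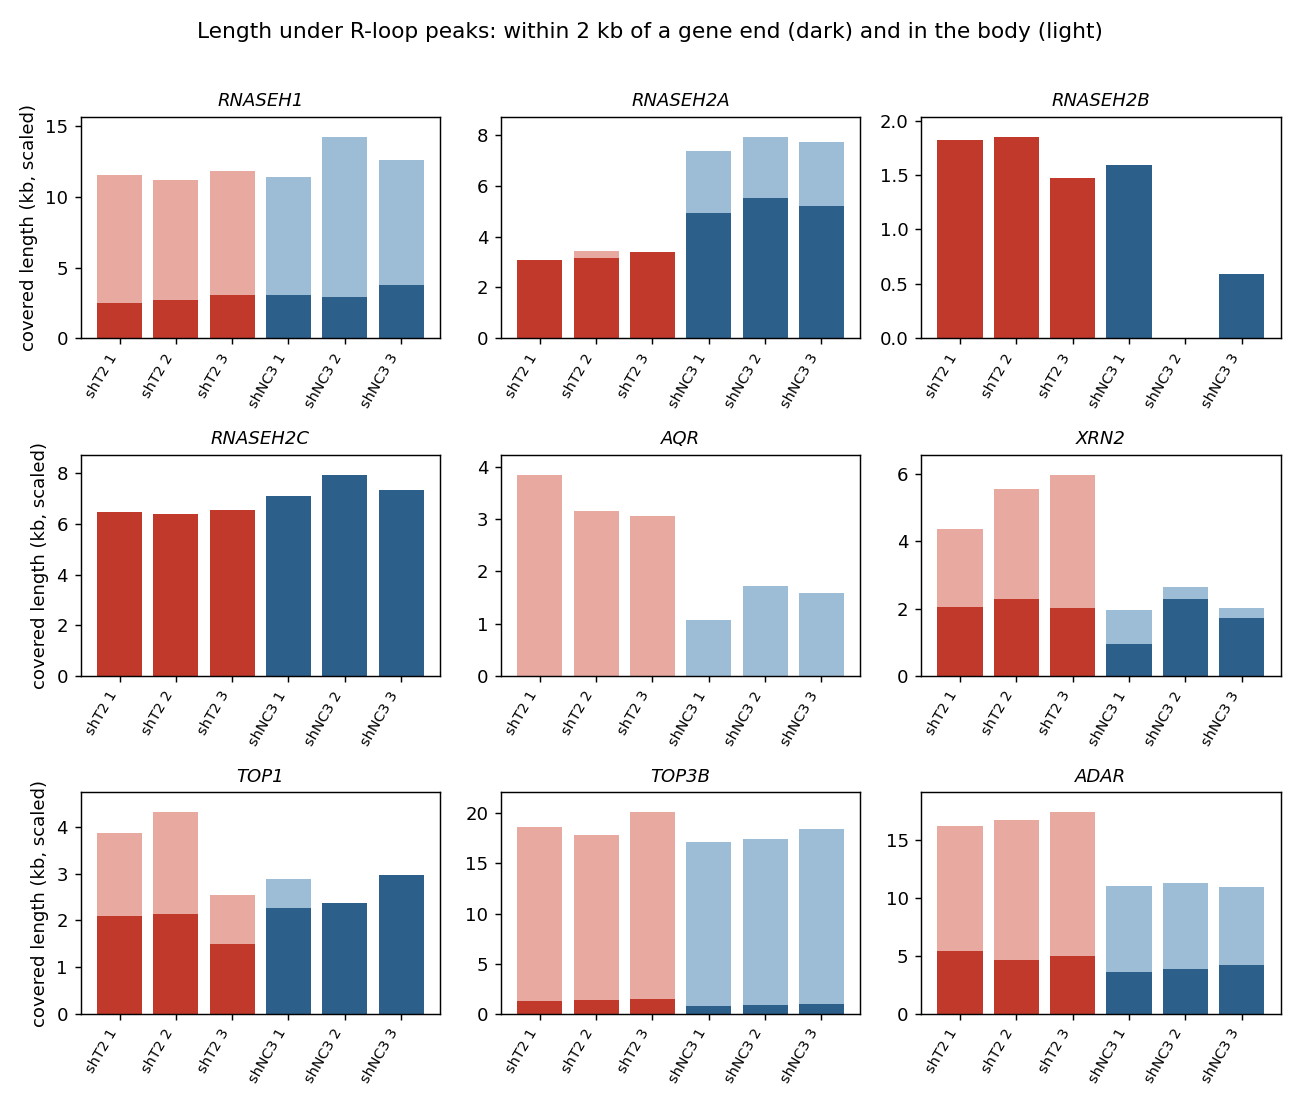
Covered length in kb, scaled to the total covered length of each peak list, for each of the 9 genes (panels) in the 3 shT2 samples (red) and the 3 shNC3 samples (blue), with the part within 2 kb of a gene end dark and the gene body light. RNASEH2A is lower in every shT2 sample, AQR, XRN2 and ADAR are higher in every shT2 sample, and all panels start at 0 on axes of their own.

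**Figure D2:**
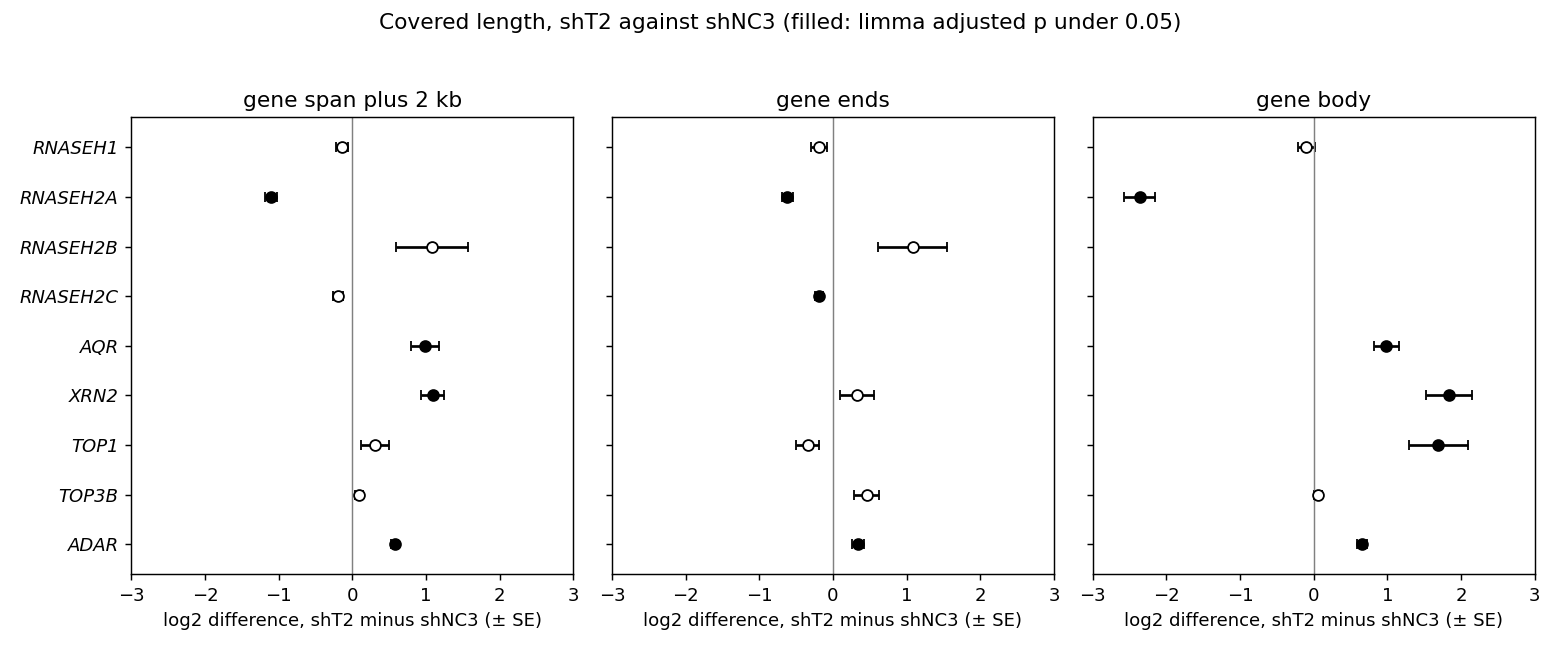
Log2 difference of scaled covered length (plus 500 bp), shT2 minus shNC3, with its standard error from the limma fit (3 samples per hairpin), for the gene span plus 2 kb, the gene ends and the gene body. Filled points passed an adjusted p of 0.05: 4 genes in the span, 3 at the ends and 5 in the body, and a missing point means that the window was not tested.

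RNASEH1 encodes the single-subunit enzyme that cuts the RNA strand of hybrids in the nucleus and in mitochondria. The gene (chr2:3531813-3558333, minus strand) lay under peaks for 11951, 12324 and 12140 bp with shT2 (replicates 1 to 3) and for 11342, 12621 and 12056 bp with shNC3 (replicates 1 to 3). The values of the hairpins interleaved. After scaling, shT2 stood at 11.5 ± 0.33 kb against 12.7 ± 1.42 kb for shNC3 (mean ± SD, n = 3), and limma put the log2 difference at -0.13 ± 0.08 (SE, adjusted p = 0.203), whose sign turned without scaling (0.02). No base in the 2 kb around the far end was covered in any sample. The longest stretch common to all 6 samples was 3961 bp long and lay 2717 to 6677 bp downstream of the start. At the start, the covered length was shared with RNASEH1-DT, a divergent lncRNA, whose window overlaps that of RNASEH1 by 3948 bp.

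RNase H2, which cuts hybrids and also removes single ribonucleotides from DNA, has a catalytic subunit, RNASEH2A, and the partner subunits RNASEH2B and RNASEH2C. Its catalytic subunit gene was the member with the clearest loss of coverage in shT2. RNASEH2A (chr19:12806584-12813640, plus strand) lay under peaks for 3209, 3791 and 3490 bp with shT2 (replicates 1 to 3) and for 7340, 7036 and 7428 bp with shNC3 (replicates 1 to 3). Every shT2 value lay below every shNC3 value. After scaling, shT2 stood at 3.32 ± 0.19 kb against 7.69 ± 0.28 kb for shNC3 (mean ± SD, n = 3), and limma put the log2 difference at -1.10 ± 0.08 (SE, adjusted p = 7.1e-05). With peaks callable at equal depth it was -1.09 (adjusted p = 9e-05), and the call held under each alternative in the span, between -1.39 and -0.87.

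The loss at RNASEH2A lay in the first part of the gene, not at the far end. The shNC3 peaks there began 592, 595 and 504 bp downstream of the start (replicates 1 to 3), and no sample had a peak over the start itself. In the 2 kb either side of the start, no shT2 sample had a covered base, and shNC3 replicates 1 to 3 had 1408, 1405 and 1496 bp. No fold or p is given, because shT2 was at 0 and the window was tested only through the shNC3 samples. In the start window, 2 members were called higher (TOP3B and ADAR) and 3 lower (RNASEH2A, RNASEH2C and TOP1), where 8.83% of 7302 genes tested were called higher and 23.6% lower, 32.5% in all. TOP3B, ADAR and RNASEH2A had peaks there with 1 hairpin only and so passed the filter on low coverage through that hairpin alone, and nothing is read from these counts. In the body, 0, 301 and 0 bp were covered in shT2 and 2442, 2141 and 2442 bp in shNC3, a log2 difference of -2.36 (SE 0.21, adjusted p = 0.000749). Its size depends on the 500 bp added before taking logs: with 100 bp it was -4.05, and with 2000 bp -1.10. The 3 shNC3 samples alone met the filter on low coverage, so nothing is read from this p. A single stretch of 3043 bp, chr19:12807179-12810221, was peaked with shNC3 throughout and never with shT2, from 595 to 3637 bp downstream of the start.

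Around the far end of RNASEH2A, by contrast, 3209, 3490 and 3490 bp were covered in shT2 and 3490 bp in every shNC3 sample. For the scaled values, limma put the log2 difference at -0.17 ± 0.06 (SE, adjusted p = 0.0552), in a window where 33.5% of 5807 genes were called (18.4% higher and 15.1% lower) and none of the 4 members tested. The body minus ends difference, that of the log2 differences, was -1.74 (SE 0.23, limma adjusted p = 0.00647), where 23.6% of 7758 genes were called (15.8% higher and 7.80% lower). For RNASEH2A it rests on the same body values near 0 in shT2, and ranged from -3.37 to -0.63 under the alternatives. Nothing is therefore read from this p. Of 6 members tested for that difference, TOP1 was called higher and RNASEH2A and TOP3B lower. The neighbouring gene THSD8, whose window reaches into that of RNASEH2A, lay under peaks for 2451 bp in all 6 samples (log2 difference -0.13, adjusted p = 0.416), none of it in the shared stretch.

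The 250 bases before the RNASEH2A start (chr19:12806334-12806583, plus strand, RefSeq GRCh38.p14) are shown because the 2 hairpins parted just downstream of them. Capitals mark runs of 4 or more G and a site of EcoRI (GAATTC), 1 of the 5 enzymes of the digest.
RNASEH2A: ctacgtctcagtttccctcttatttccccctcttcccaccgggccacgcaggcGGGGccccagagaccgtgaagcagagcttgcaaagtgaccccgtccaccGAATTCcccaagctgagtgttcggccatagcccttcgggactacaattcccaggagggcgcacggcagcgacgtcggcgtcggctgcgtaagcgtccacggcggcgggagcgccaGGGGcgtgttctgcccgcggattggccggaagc
None of these bases lay under a peak in any sample, as for 59.2% of 13819 promoters with the same window. An EcoRI site occurs in 3.56% of those promoters, and a site of any of the 5 enzymes, BsrGI (TGTACA), EcoRI (GAATTC), HindIII (AAGCTT), SspI (AATATT) and XbaI (TCTAGA), all of which read alike on both strands, in 15.7%. Their GC content was 66.0%, against a median of 62.4%.

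RNASEH2B, the subunit that anchors the complex to the replication clamp, is long (60.8 kb, chr13:50909678-50970460, plus strand) and had peaks at its ends only. It lay under peaks for 1889, 2038 and 1504 bp with shT2 (replicates 1 to 3) and for 1577, 0 and 567 bp with shNC3 (replicates 1 to 3). The values of shNC3 replicate 1 and of shT2 overlapped, and shNC3 replicate 2 had no peak. The log2 difference of 1.08 (SE 0.49) did not pass (limma adjusted p = 0.10). It rests on single shNC3 samples: without replicate 2 it was 0.55 (adjusted p = 0.210), and without replicate 1 it was 1.58 and passed (adjusted p = 0.0181). RNASEH2B was also called among peaks enriched at least 5-fold (1.72, adjusted p = 0.00669) and with −log10 q of at least 5 (1.57, adjusted p = 0.0169). Most of the covered bases lie in the window of RNASEH2B-AS1, a lncRNA that overlaps the start of RNASEH2B, and the peaks carry no strand.

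RNASEH2C is the shortest member (3126 bp, chr11:65717673-65720798, minus strand), so its whole window counts as gene ends. It lay under peaks for 6686, 7035 and 6706 bp with shT2 (replicates 1 to 3) and for 7035 bp in every shNC3 sample, of a window of 7126 bp. A covered length so close to the window cannot rise further. After scaling, the log2 difference was -0.19 (SE 0.07, limma adjusted p = 0.0512 over the span, and SE 0.05, adjusted p = 0.0229 at the ends). The call at the ends was lost without scaling (-0.04, adjusted p = 0.194) and at equal depth (-0.14, adjusted p = 0.063), and also without shT2 replicate 1, 2 or 3 or shNC3 replicate 3. KAT5, an acetyltransferase gene, shares 5932 bp of this window, and its own log2 difference was -0.19 (adjusted p = 0.0365).

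The sequence before the RNASEH2C start (chr11:65720799-65721048, minus strand, RefSeq GRCh38.p14) is shown for its runs of G and because peaks covered it in some samples and not in others. Capitals mark runs of 4 or more G on the coding strand.
RNASEH2C: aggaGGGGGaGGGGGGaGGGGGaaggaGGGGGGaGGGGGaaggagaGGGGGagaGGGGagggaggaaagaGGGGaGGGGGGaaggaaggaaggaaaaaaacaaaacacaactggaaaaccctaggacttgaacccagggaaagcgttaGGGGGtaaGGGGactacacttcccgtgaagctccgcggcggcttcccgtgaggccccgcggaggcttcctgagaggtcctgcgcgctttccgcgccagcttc
It holds 11 such runs, as many as or more than 99.3% of the 13819 promoters, and 76.1% hold at least 1 (GGGG). Its GC skew, the excess of G over C as a share of both, was 0.41, at or above that of 99.1% of promoters. Peaks covered all 250 bases in shT2 replicate 2 and in all shNC3 samples, and none of them in shT2 replicates 1 and 3. At these replicates the peak was broken between 2 stretches common to all 6 samples, 5097 bp over the gene and 1582 bp upstream.

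AQR (Aquarius) is a helicase-like protein that binds introns within the spliceosome. Its gene lay under peaks for a longer stretch in shT2, in a few short peaks. AQR (chr15:34851782-34969742, minus strand) lay under peaks for 3986, 3473 and 3123 bp with shT2 (replicates 1 to 3) and for 1057, 1515 and 1527 bp with shNC3 (replicates 1 to 3). All shT2 values were above all shNC3 values. After scaling, shT2 stood at 3.35 ± 0.43 kb against 1.46 ± 0.34 kb for shNC3 (mean ± SD, n = 3), and limma put the log2 difference at 0.99 ± 0.19 (SE, adjusted p = 0.00415), and 1.03 at equal depth (adjusted p = 0.00415). Among peaks of at least 5-fold enrichment alone, the difference was 0.22 and did not pass (adjusted p = 0.398).

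All covered bases of AQR lay in the body, and neither end carried a peak in any sample. Stretches of 655 and 330 bp, 21600 to 22254 and 23516 to 23845 bp downstream of the start, were under a peak in all 6 samples. A region at the other end of the body, chr15:34854941-34857186, carried peaks of 2246, 1329 and 1436 bp in shT2 replicates 1 to 3 and none in shNC3. Within it, 546 and 379 bp were common to all shT2 samples. With gene ends widened to 5 kb, most of that region falls outside the body, and the body difference was 0.37 (adjusted p = 0.132).

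XRN2 is the exoribonuclease that degrades RNA downstream of the cleavage site and helps to end transcription. Its gene gained body coverage in shT2 beyond a peak at the start that both hairpins shared. XRN2 (chr20:21303331-21389825, plus strand) lay under peaks for 4531, 6116 and 6113 bp with shT2 (replicates 1 to 3) and for 1953, 2339 and 1945 bp with shNC3 (replicates 1 to 3). The 2 hairpins did not overlap. After scaling, shT2 stood at 5.30 ± 0.83 kb against 2.21 ± 0.37 kb for shNC3 (mean ± SD, n = 3), and limma put the log2 difference at 1.09 ± 0.16 (SE, adjusted p = 0.00114), and 1.09 at equal depth (adjusted p = 0.00206).

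In the body of XRN2, shT2 replicates 1 to 3 were covered over 2401, 3616 and 4059 bp and shNC3 replicates 1 to 3 over 1002, 309 and 307 bp. The log2 difference was 1.83 (SE 0.31, limma adjusted p = 0.00586), in a window where 46.8% of 8853 genes tested were called, 25.2% higher and 21.6% lower. Around the start, 1638, 2500 and 2054 bp in shT2 and 951, 2030 and 1638 bp in shNC3 interleaved (0.23, adjusted p = 0.470). A stretch of 951 bp just before the start, from -1299 to -349 bp, was under a peak in every sample. A stretch of 737 bp, chr20:21314851-21315587, was peaked with shT2 throughout and never with shNC3. The body exceeded the ends by 1.51 (SE 0.51) without passing (adjusted p = 0.0866), and passed without shNC3 replicate 1 (2.05, adjusted p = 0.0161).

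**Figure D3:**
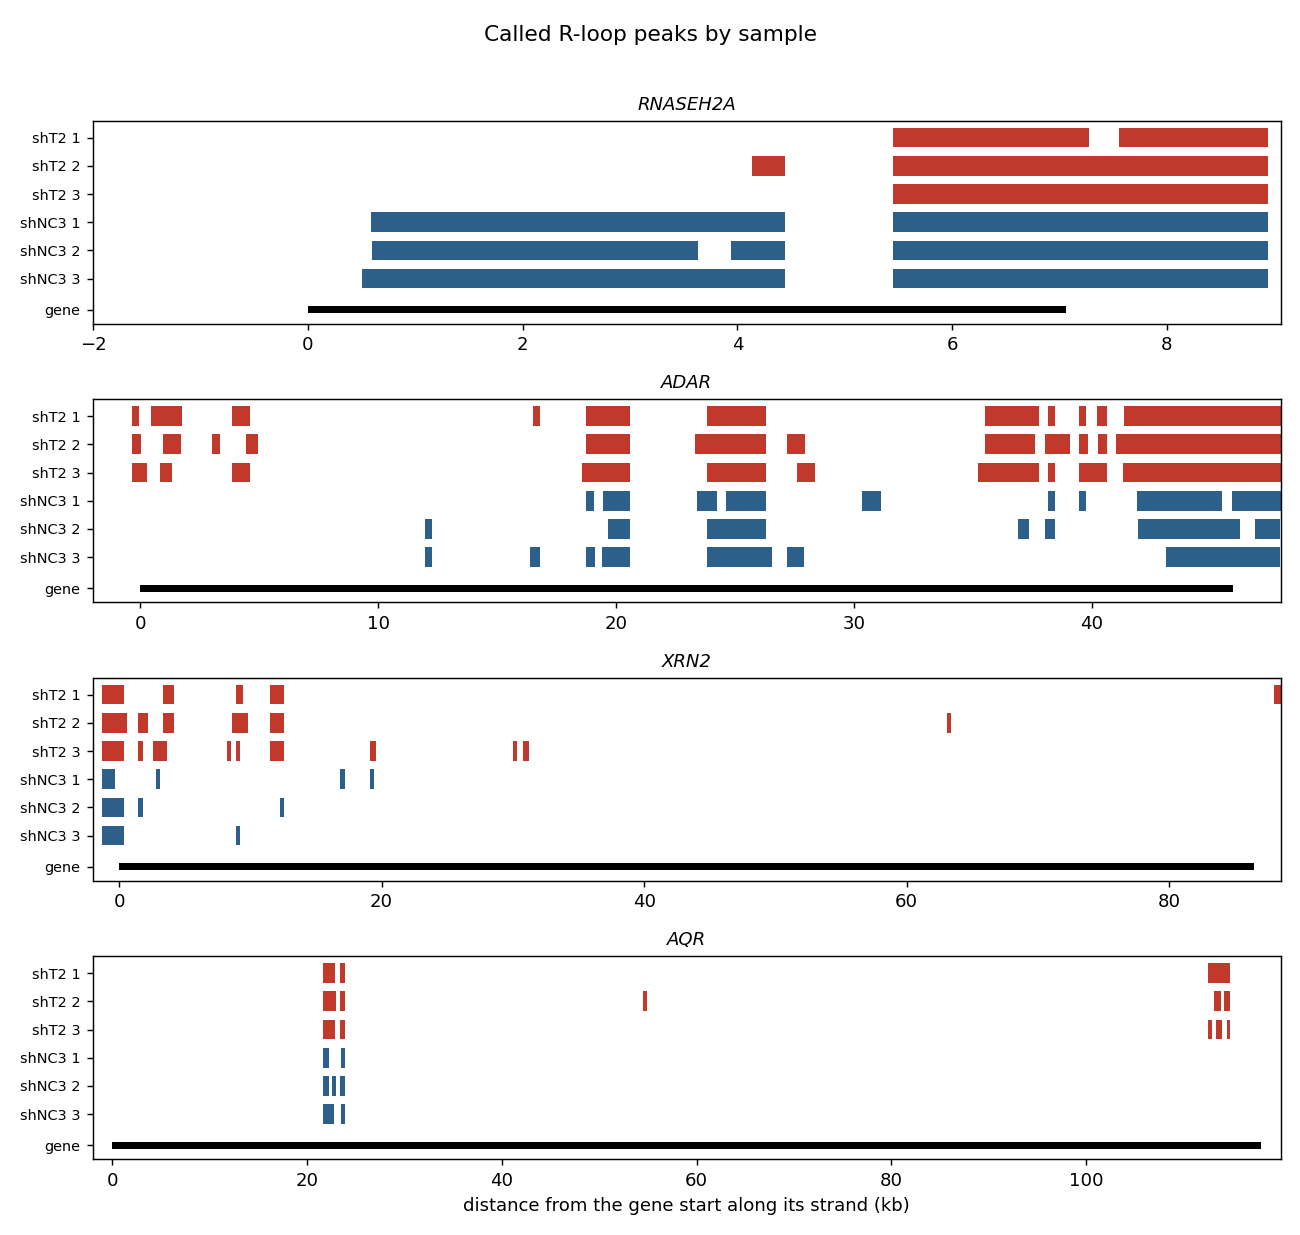
Called peaks of the 3 shT2 samples (red) and the 3 shNC3 samples (blue) along RNASEH2A, ADAR, XRN2 and AQR, against the distance in kb from the gene start along its strand, with the gene as a black bar and 2 kb shown beyond each end. The peak over the first part of RNASEH2A is present in the 3 shNC3 samples, and the peaks at the start of ADAR and near the far end of AQR are present in the 3 shT2 samples alone.

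TOP1 relaxes supercoils ahead of and behind RNA polymerase. Over its span the difference between the hairpins did not pass, while its body had longer coverage with shT2 and its start was called lower. TOP1 (chr20:41028822-41124487, plus strand) lay under peaks for 4018, 4750 and 2608 bp with shT2 (replicates 1 to 3) and for 2875, 2104 and 2845 bp with shNC3 (replicates 1 to 3). These values interleaved (log2 difference 0.31, SE 0.19, limma adjusted p = 0.211), and the difference was 0.09 at equal depth. TOP1 was called higher without shT2 replicate 3 (0.50, adjusted p = 0.034) and with 5 kb windows (0.59, adjusted p = 0.0167). In the body, 1841, 2402 and 1088 bp were covered in shT2, and 620, 0 and 4 bp in shNC3. The body difference was 1.69 (SE 0.40, adjusted p = 0.0183), and 1.30 at equal depth (adjusted p = 0.042). Its size depends on the 500 bp added before taking logs: with 100 bp it was 3.12, and with 2000 bp 0.73. The shT2 samples alone met the filter on low coverage, so nothing is read from these p-values.

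The body call of TOP1 was lost without shT2 replicate 1 or 2 or shNC3 replicate 2 or 3 (adjusted p from 0.0544 to 0.0643) and among peaks enriched at least 5-fold (0.86, adjusted p = 0.182). Around the start of TOP1, 2177, 1751 and 1478 bp were covered in shT2 and 2255, 2104 and 2841 bp in shNC3. The scaled values did not overlap. Limma put the log2 difference at -0.46 ± 0.14 (SE, adjusted p = 0.0447), which did not pass at equal depth (-0.53, adjusted p = 0.109) or in 5 of the 6 fits that leave out 1 sample. The body minus ends difference was 2.03 (SE 0.42, adjusted p = 0.0235), and 1.71 at equal depth (adjusted p = 0.0578). It passed only without shNC3 replicate 1 among the fits that leave out 1 sample. This difference rests on the same low body values in shNC3, so nothing is read from its p. Part of the body peaks of TOP1 lies in the window of PLCG1-AS1, a lncRNA that overlaps the gene by 30494 bp of window.

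The start of TOP1 (chr20:41028572-41028821, plus strand, RefSeq GRCh38.p14) is shown for comparison with that of RNASEH2C, since both carry more G than C. Capitals mark runs of 4 or more G.
TOP1: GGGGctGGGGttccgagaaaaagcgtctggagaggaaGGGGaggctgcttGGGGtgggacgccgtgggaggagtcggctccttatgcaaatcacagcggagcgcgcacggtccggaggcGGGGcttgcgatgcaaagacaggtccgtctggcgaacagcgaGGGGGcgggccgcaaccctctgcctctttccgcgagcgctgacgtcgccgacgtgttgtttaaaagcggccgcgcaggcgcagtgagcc
It holds 6 runs, as many as or more than 94.3% of promoters, and a GC skew of 0.22 (91.8%). Peaks covered all 250 bases in 5 of the 6 samples and none of them in shT2 replicate 3. TOP3B also carried more G than C (skew 0.11, 4 runs), with no peak over its 250 bases in any sample. RNASEH1 and XRN2 had skews of -0.24 and -0.20, with peaks over some or all of these bases in 5 of the 6 samples. A link between G content and peaks was not tested.

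TOP3B relaxes single-stranded nucleic acid, RNA included, and works with TDRD3. Its gene carried the longest common coverage of the list. TOP3B (chr22:21957025-21982787, minus strand) lay under peaks for 19279, 19678 and 20564 bp with shT2 (replicates 1 to 3) and for 17013, 15435 and 17716 bp with shNC3 (replicates 1 to 3). Every unscaled shT2 value lay above the shNC3 values, but the scaled ones overlapped, with 18.8 ± 1.13 kb for shT2 and 17.7 ± 0.71 kb for shNC3 (mean ± SD, n = 3). The log2 difference was 0.09 (SE 0.06, limma adjusted p = 0.229), 0.24 without scaling (adjusted p = 0.022) and 0.15 at equal depth (adjusted p = 0.0664). All 6 samples shared a stretch of 7257 bp, from 17261 to 24517 bp downstream of the start.

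Within 2 kb of the TOP3B start, 448, 546 and 546 bp were covered in shT2 and none in shNC3. As at the start of RNASEH2A, no fold or p is given, because 1 hairpin was at 0. The stretch common to the 3 shT2 samples lay 1454 to 1901 bp downstream of the start, and no sample had a peak over the start itself. Around the far end, 897, 915 and 965 bp were covered in shT2 and 804, 755 and 885 bp in shNC3, without overlap, but the scaled values overlapped. The body minus ends difference was -0.40 (SE 0.07, adjusted p = 0.0124), and -0.00 with ends of 5 kb. In scaled means, the start window had 0.49 kb in shT2 and 0 in shNC3, and the far end 0.88 and 0.86 kb. The call thus draws on a start window covered with 1 hairpin only, and nothing is read from it.

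ADAR deaminates adenosine to inosine in double-stranded RNA and in hybrids, and is transcribed from more than 1 start. Its gene had longer coverage in shT2 in the body and at the outermost start. ADAR (chr1:154582057-154627997, minus strand) lay under peaks for 16845, 18416 and 17817 bp with shT2 (replicates 1 to 3) and for 10995, 10007 and 10542 bp with shNC3 (replicates 1 to 3). All shT2 values were above all shNC3 values. After scaling, shT2 stood at 16.8 ± 0.57 kb against 11.1 ± 0.16 kb for shNC3 (mean ± SD, n = 3), and limma put the log2 difference at 0.57 ± 0.05 (SE, adjusted p = 0.000125), and 0.61 at equal depth (adjusted p = 0.000138). The call held under each alternative in the span, between 0.46 and 0.81.

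The body of ADAR lay under peaks for 11259, 13297 and 12707 bp in shT2 and 7436, 6613 and 6542 bp in shNC3, which limma put at a log2 difference of 0.66 ± 0.07 (SE, adjusted p = 0.00115). At the ends, where 40.0% of 10575 genes tested were called (14.9% higher and 25.2% lower), ADAR was the 1 member called higher (0.34, SE 0.08, adjusted p = 0.0138), and RNASEH2A (-0.62, SE 0.07, adjusted p = 0.00074) and RNASEH2C were the 2 called lower. The calls of ADAR and RNASEH2A at the ends draw on start windows covered with 1 hairpin only, and are not results apart from those. In scaled means, RNASEH2A had 0 kb in shT2 and 1.52 kb in shNC3 at the start, and 3.22 and 3.70 kb at the far end. For ADAR these were 1.21 and 0 kb at the start, and 3.80 and 3.86 kb at the far end. The call of ADAR at the ends was lost without shT2 replicate 1 (0.29, adjusted p = 0.0531). Its far end lay under peaks for 4000 bp in all shT2 samples and over 3559, 3394 and 4000 bp in shNC3 (-0.02, adjusted p = 0.798). CHRNB2, a nicotinic receptor subunit gene that lies beyond that end, had a log2 difference of 0.23 (adjusted p = 0.0202).

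Within 2 kb of the outermost ADAR start, 1586, 1119 and 1110 bp were covered in shT2 and none in shNC3, again with no fold or p. The bases before that start (chr1:154627998-154628247, minus strand, RefSeq GRCh38.p14) lay under peaks in every shT2 sample (195, 250 and 250 bp of it, replicates 1 to 3) and in no shNC3 sample. The window of LOC124904427, a lncRNA, holds the same peaks. RefSeq lists 3 ADAR starts, 1 of them 19.2 kb inside the gene (chr1:154608798-154609047 before it), which was described after its values had been seen. Both sequences are shown because peaks within 2 kb of the outer start were found with 1 hairpin, and peaks within 2 kb of the inner start with both.
ADAR outer start: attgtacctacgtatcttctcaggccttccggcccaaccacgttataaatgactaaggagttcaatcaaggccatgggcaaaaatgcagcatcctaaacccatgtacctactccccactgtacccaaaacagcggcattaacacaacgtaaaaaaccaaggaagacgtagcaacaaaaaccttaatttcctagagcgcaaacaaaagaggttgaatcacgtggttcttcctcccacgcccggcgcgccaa
ADAR inner start: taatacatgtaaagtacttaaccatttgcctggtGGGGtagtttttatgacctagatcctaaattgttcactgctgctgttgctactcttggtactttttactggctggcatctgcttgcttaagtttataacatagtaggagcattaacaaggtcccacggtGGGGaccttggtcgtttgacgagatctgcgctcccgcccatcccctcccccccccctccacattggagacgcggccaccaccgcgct
Capitals mark runs of 4 or more G, of which the outer sequence has 0 and the inner 2. The GC content was 47.2% before the outer start, at or above that of 15.8% of promoters, and 50.4% before the inner start. Within 2 kb of the inner start, 1841, 1872 and 2017 bp were covered in shT2 and 1468, 929 and 1544 bp in shNC3. The 250 bases shown before it lay under peaks in full in every shT2 sample, and for 142, 0 and 168 bp in shNC3 replicates 1 to 3. The inner start itself lay in a stretch of 297 bp, chr1:154608583-154608879, that was peaked in all shT2 samples and in no shNC3 sample. A stretch of 929 bp, 19666 to 20594 bp downstream of the outer start, was under a peak in all 6 samples. It lay downstream of the inner start and did not reach it.

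Summit height gave a second readout of the same peaks. It is the number of fragments at the tallest summit in the gene window, recovered from the fold enrichment and p of the peak, over the mean depth of the library. Of 7 members with a summit in every sample, AQR and XRN2 were called higher in shT2 and RNASEH2A and TOP1 lower. Over 8489 genes tested, 9.14% were called higher and 36.9% lower (46.1% in all), with a median log2 difference of -0.24. The tallest summit of RNASEH2A was 8.46, 8.39 and 8.13 times mean depth in shT2 replicates 1 to 3 and 15.6, 15.7 and 14.3 in shNC3 replicates 1 to 3 (log2 difference -0.87, SE 0.15, limma adjusted p = 0.000358). In shNC3 replicates 2 and 3 this summit lay near the far end, 6872 and 7203 bp from the start, where all samples had a peak.

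For AQR, the summit was 16.3, 14.5 and 19.8 times mean depth in shT2 and 10.6, 11.5 and 10.3 in shNC3 (log2 difference 0.63, SE 0.16, limma adjusted p = 0.00493). In each sample it lay 21762 to 23843 bp from the start, in the stretches that all 6 samples shared. XRN2 was at 21.1, 17.4 and 18.2 in shT2 and 13.4, 13.3 and 10.3 in shNC3 (0.62, SE 0.15, adjusted p = 0.00504), at the peak before its start. For TOP1 the order was opposite, with 11.2, 11.0 and 11.7 in shT2 and 19.6, 15.1 and 14.9 in shNC3 (-0.54, SE 0.15, adjusted p = 0.011). The 2 hairpins did not overlap in any of these genes.

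The tallest ADAR summit was at 57.4, 60.7 and 56.9 in shT2 and 29.6, 12.1 and 40.7 in shNC3, with no overlap. The log2 difference of 1.25 (SE 0.51) did not pass (limma adjusted p = 0.119), and without shNC3 replicate 2 it was 0.75 (adjusted p = 0.00119). In that sample the summit counted lay 24862 bp from the ADAR start, and in the others 46856 or 46857 bp, beyond the far end and close to CHRNB2. RNASEH1 (0.08, adjusted p = 0.659) and TOP3B (-0.02, adjusted p = 0.880) did not pass. The strongest peak at RNASEH2C lay between the 99.4th and the 99.6th percentile of fold enrichment in its own list, in the 5 samples with a summit in its window. That summit lies 4647 to 4649 bp from the RNASEH2C start, past the far end and within KAT5.

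**Figure D4:**
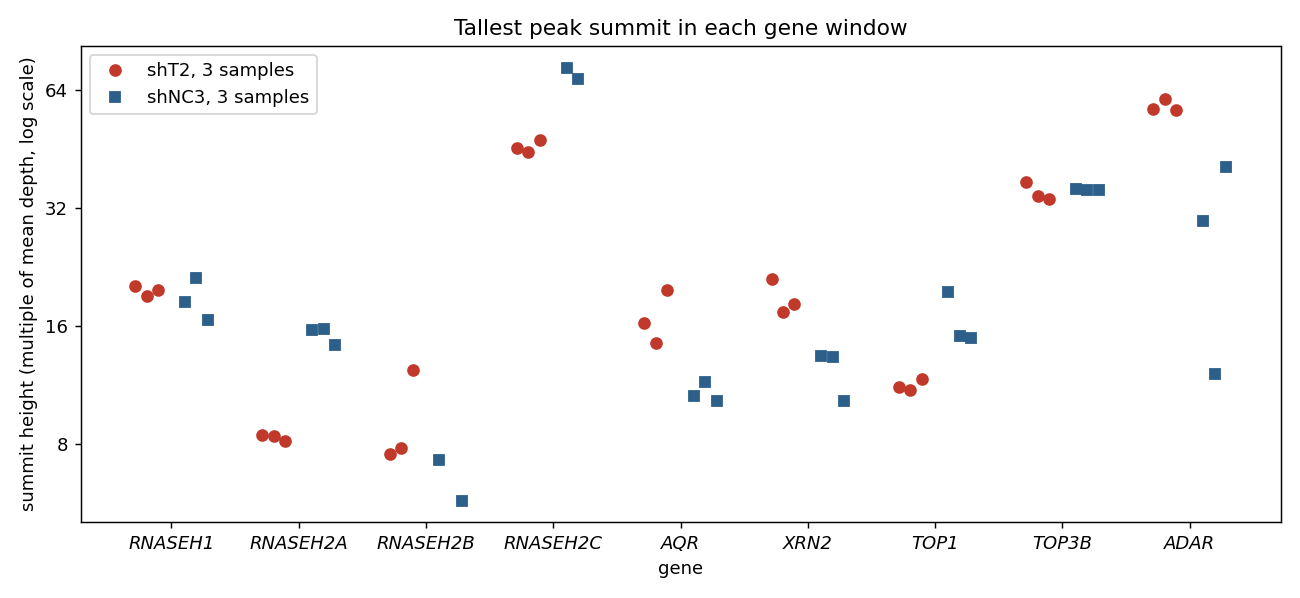
Height of the tallest summit in the window of each gene, as a multiple of the mean depth of its library, on a log scale, for the 3 shT2 samples (red circles) and the 3 shNC3 samples (blue squares). RNASEH2A and TOP1 are lower and AQR and XRN2 higher in every shT2 sample, and points are missing for RNASEH2B in shNC3 replicate 2 and RNASEH2C in shNC3 replicate 3, where no summit lay in the window.

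Merged over the samples, the peaks at the 9 genes formed 53 regions. Of these, 14 were present in all 6 samples, 6 in all shT2 and no shNC3 sample, and 0 in all shNC3 and no shT2 sample. Over the genome, 20.6% of 75622 regions were in all 6 samples, 5.86% in all shT2 samples alone and 2.85% in all shNC3 samples alone. Of the 6 regions of shT2, ADAR held 3 and AQR and TOP3B 1 each, and the last lay past the far end of TOP1, where the peak of shT2 replicate 1 fell outside the gene window. With presence set at 500 bp, the counts were 13, 8 and 2, and the long RNASEH2A region then counts as one of shNC3. The shares over the genome were not taken at 500 bp, so nothing is read from these counts. In bases, 3245 bp of RNASEH2A (43.7% of its bases covered in any sample) lay under peaks of all shNC3 samples alone. Under peaks of all shT2 samples alone lay 3742 bp of ADAR (16.3%), 928 bp of AQR (21.1%) and 1038 bp of XRN2 (11.1%). Over the 9 genes together, the shares were 7.41% for shT2 alone and 4.09% for shNC3 alone. The share of bases over the genome was not taken.

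Some edges of these peaks lay close to an edge found with the other hairpin. Of 496 peak edges at the members, 185 (37.3%) lay within 10 bp of an edge in a sample of the other hairpin, against 30.6% of all edges. In the promoter windows of the RefSeq table, 24.4% to 27.2% of peak edges per sample lay within 10 bp of a cut site of the 5 enzymes, where 2.38% of bases do. Cut sites within the gene bodies were not mapped, and the part of the digest in any difference above was not tested.

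Other genes that act on R-loops were described from a list chosen for their roles, with earlier results of these data known. Of 51 such genes, 47 were tested in the span, 20 were called higher with shT2 and 3 lower, while 24 missed the threshold, with a median log2 difference of 0.19 against -0.08 for all genes, of which 24.1% were called higher and 27.2% lower. XRN1, ERCC5 and CDC5L, 3 of those called higher, had peaks with shT2 only and entered the fit through that hairpin. Of the 44 others, 17 were called higher and 3 lower, with a median of 0.17, where 22.8% and 25.5% of the 11058 genes with a peak in both hairpins were. Among those called higher, SMARCAL1, DIS3, RPA1 and ADARB2 were at 0 in some shNC3 sample and met the filter through shT2 alone. Of 16 helicase genes tested, 9 were higher and 2 lower. DHX9, which unwinds hybrids, averaged 19.4 ± 1.28 kb of coverage with shT2 against 9.03 ± 0.73 kb with shNC3 (SD, n = 3; log2 difference 1.06, adjusted p = 6.9e-05). DDX17 differed by 1.09 (adjusted p = 0.000193), DDX41 by -0.36 (adjusted p = 0.0167) and PIF1 by -0.97 (adjusted p = 0.0459).

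Of 9 nuclease and exosome genes, 5 were called higher, XRN1 and ERCC5 included, and 0 lower. Among them were the exosome nuclease DIS3 (2.33, limma adjusted p = 0.000559) and the microRNA processing nuclease DROSHA (1.51, adjusted p = 0.000958). Of 8 topoisomerase genes and partners, 1 was higher, TOP2B (0.95, adjusted p = 0.000414), and 7 did not pass, TDRD3 among them (0.15, adjusted p = 0.463). In the group of RNase H recruitment and lesion repair, BRCA1 (0.56, adjusted p = 0.00161) and RPA1 (2.75, adjusted p = 0.00183), the large subunit of the single-strand binding protein RPA, were higher and the exonuclease gene TREX1 was lower (-0.43, adjusted p = 0.00408). Among the partners of AQR in its intron-binding complex, ZNF830 was higher (0.94, adjusted p = 0.0414), and CDC5L had 1.76 ± 0.72 kb in shT2 (SD, n = 3) and no peak in shNC3. Of the other editing genes, ADARB2 was higher (1.54, adjusted p = 0.033) and ADARB1 did not pass (-0.20, adjusted p = 0.189). DIS3, RPA1 and ADARB2 averaged only 0.24, 0.56 and 0.11 kb with shNC3, so their differences depend on the 500 bp added. Nothing is read from the p-values of these genes.

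For the 4 members called in the span, the genes with the most like pattern were taken by the Euclidean distance of the 6 log2 values. They were CDC42EP3 (0.17) and ACAD10 (0.18) for ADAR, MMACHC (0.31) and NDFIP1 (0.39) for AQR, ADAMTSL5 (0.24) and RETSAT (0.24) for RNASEH2A, and SLC7A7 (0.20) and KLHL23 (0.28) for XRN2. The distance reads level and difference together: RETSAT, for example, averaged 3.28 kb with shT2 against 7.24 kb with shNC3.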

How the data were processed

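The 6 deposited files are lists of narrow peaks, 1 per sample, made by the authors. Per the submitters' processing notes, Bowtie2 2.4.4, SAMtools, MACS2 2.2.6 and the build hg38 were used, and the control used for calling is not stated in those notes. The authors deposited for each peak its position and summit offset, an integer score, the fold enrichment at the summit (a linear ratio), and −log10 p-value and −log10 q-value. The deposited peaks have q-values up to 0.01. From each peak's fold and −log10 p, the fragments at its summit and the local background were recovered for 99.8% to 99.9% of peaks, which also gave library depth.

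Covered bp per gene were scaled to the mean total covered length, and log2(scaled bp + 500) was modelled in R 4.3.3 by limma 3.58.1, using lmFit and a robust, trended eBayes, over all protein-coding genes with coverage in 3 or more samples, both hairpins together, with Benjamini-Hochberg adjustment over every gene tested and a threshold of 0.05. Differences on this scale understate those of sparsely covered genes. Start windows need a strand, which the RefSeq promoter table gave for 15842 genes. Summit heights and the body minus ends values were fitted likewise. Only peaks are in the lists, so signal below the threshold is not measured. The code was tested on simulated data and against bedtools.

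Named genes are the 9 members, genes whose windows overlap them, up to 2 per direction of each other R-loop group with the smallest p among those called (TDRD3 and ADARB1 were added as partners or paralogues), and the 2 most like genes of each member called. Members and lists were chosen with earlier results of these data known. Same-numbered samples of the 2 hairpins did not deviate together (r = -0.02, -0.06 and -0.01), so replicate number was not used as a block. Alternatives changed scaling, pseudocount, filter, peak threshold, list length, flank, peak assignment and samples. Equal depth, the start and far end windows and summit heights were added after the data had been seen.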

Additional observations from a re-analysis of the deposited data

How the results depend on the processing

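The span calls of RNASEH2A, XRN2 and ADAR kept direction and call under all 18 alternatives, and AQR lost its call with peaks of at least 5-fold enrichment. Elsewhere calls moved, and the cause was not tested. Counts are members called higher or lower with shT2, each followed by the percentage of all genes tested that the same setting called. The start counts include windows covered with 1 hairpin only, and nothing is read from them. Without scaling, the log2 difference of RNASEH1 was 0.02 in the span and 0.05 in the body, and at the far end RNASEH2C was at 0.00 and ADAR at 0.12. The ends then had 2 members higher (15.2%) and 1 lower (12.7%), the start 1 lower (12.1%), and 2044, 1346 and 1221 genes were lower in span, ends and body. With peaks of at least 5-fold enrichment, TOP1 was at -0.43 in the span, RNASEH1 at 0.17 in the body and ADAR at 0.05 at the far end. There were 1843 genes higher and 1955 lower in the span, 1024 and 1361 at the ends, and 1297 and 1130 in the body, with 1 member lower at the ends (15.1%), 2 higher in the body (18.1%) and 1 lower in body minus ends (6.93%). With −log10 q of at least 5, TOP3B was at -0.01 at the far end, 2 members were lower in the span (30.1%), 2 higher at the ends (15.5%), 2 lower at the far end (35.7%) and 3 higher in body minus ends (16.2%). With equal list length or equal depth (the latter added after the data were seen), ADAR was at 0.03 at the far end and 0 members were higher in body minus ends (14.6% in both), and 1 was lower at the ends at equal depth (21.8%).

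With 1 kb windows, ADAR was at 0.10 at the far end, 1 member was higher at the start (6.65%), 1 lower in body minus ends (6.18%), and 1014 genes were higher at the ends. With 5 kb windows, TOP1 was at 0.23 at the ends, and TOP3B at -0.09 and ADAR at 0.09 at the far end. Members lower were then 3 in the span (29.5%), 0 in the body (19.5%), 3 at the far end (27.4%) and 1 in body minus ends (10.6%), and members higher 3 at the ends (21.2%), 4 at the start (12.4%) and 3 at the far end (27.0%), with 2430 genes higher at the ends and 1263 lower in the body. With whole peaks assigned by summit, RNASEH2C was at 1.31 in the span and at the ends and 1.16 at the far end, TOP3B at -0.09 in the body, and ADAR at 0.95 at the far end and -0.60 in body minus ends. The ends then had 0 members higher and 1 lower (735 and 822 genes, 7.52% and 8.41%), the body 0 lower (1162 genes, 14.5%), the start 1 higher (7.07%) and 1 lower (12.2%), and body minus ends 0 and 0 (4.00% and 1.76%). With a pseudocount of 100 bp, 2 members were lower in the span (26.6%) and 0 higher in body minus ends (13.8%), and with 2000 bp 1 was lower in body minus ends (9.49%). With presence at 500 bp, for which no share over the genome was taken, 2 regions were in all shNC3 samples alone. Counting every row changed no count, since no interval is listed more than once.

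Leaving out 1 sample at a time gave -0.18 to 0.02 for RNASEH1 in the body, -0.03 to 0.44 for XRN2 at the start, -0.01 to 0.05 for TOP3B and -0.07 to 0.03 for ADAR at the far end, -0.00 to 0.17 for RNASEH1 and -0.06 to 0.01 for TOP3B at the tallest summit, and -0.05 to 0.27 for RNASEH1 in body minus ends. The members lower were then 1 to 2 in the span (22.5% to 25.3%), at the ends (18.5% to 24.5%) and at the start (17.2% to 19.1%) and 0 to 2 at the far end (9.49% to 29.8%), and the members higher 0 to 2 at the ends (10.1% to 14.1%) and in body minus ends (9.02% to 12.4%). With the replicate number as a block, although the numbers did not pair the samples, 1 member was lower at the ends (21.5%; RNASEH2C lost its call, -0.19, limma adjusted p = 0.0732), 1 at the start (21.3%; RNASEH2C and TOP1 lost theirs) and 1 in body minus ends (4.47%; TOP3B lost its call, -0.40, adjusted p = 0.0602), and the block changed no other member's call. Depth limits what can be seen: the shNC3 libraries are shallower, and a base outside peaks is one where no signal passed the threshold at that depth.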
